A study of Mus musculus with 6 samples.

Results

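The 46 genes described here act in the last stage of the cell cycle, from the G2 phase through chromosome segregation to the splitting of the cell. They were taken by gene symbol from a list of G2/M and mitosis genes, and all 46 of 46 were found among the 21874 uniquely named genes in the tables. The study sequenced RNA from cells sorted from the bone marrow of WT mice after 3 months on a serine/glycine-free diet (SGFD, 3 libraries) or on a control diet (CD, 3 libraries). The sort kept Lin-, c-Kit+, Sca1+, CD34- and CD135- cells, a gate for long-term hematopoietic stem cells (LT-HSCs). Mice of both diets were randomized, matched for background, housed free of specific pathogens and given autoclaved food and water. The labels do not say whether a library came from a single mouse or from a pool, and any p-value given here reflects only how far these libraries scatter, part of which may be technical.

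Entry into mitosis is driven by the kinase CDK1 bound to a B-type or A-type cyclin, with the Polo and Aurora kinases as further regulators. Kinetochores then tie chromosomes to the spindle, kinesin motors move and sort microtubules, and the spindle checkpoint holds back the anaphase-promoting complex (APC/C) until every chromosome is attached. LT-HSCs are known as mostly quiescent cells, so mitotic RNA in a sorted LT-HSC sample is usually carried by a cycling minority. These libraries do not give the share of cycling cells. In bulk RNA, fewer cycling cells and less RNA per cycling cell cannot be told apart.

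The values are FPKM (fragments per kilobase of transcript, scaled to the library total), so levels can be compared between genes per length. The steps between values correspond to estimated library totals of 19222918, 19992100 and 18904428 fragments for SGFD and 19153071, 18845611 and 18823809 for CD. At that depth single members held from 244 (Cdc25c) to 15956 (Top2a) fragments per library. Marker lists of LT-HSCs and of other blood cells each held genes that differed between the diets, by the test described below. Among all 10618 genes tested, 17.6% were higher and 41.8% lower with SGFD. The counts per marker list are to be read beside these shares. Granulocyte-monocyte progenitor markers had 8 of 9 tested genes higher and none lower, with a summed level of 4471 to 4904 FPKM in SGFD libraries, against 1548 to 1587 FPKM in CD libraries. A large part of this sum is Calr, at 962 ± 21.2 FPKM with SGFD and 664 ± 8.27 FPKM with CD (SD, n = 3 each). Monocyte and macrophage markers, which share Ly6c2 with that list, had 5 of 9 higher and 4 lower (summed level 174 to 190.5 FPKM with SGFD, 43.7 to 45.1 FPKM with CD). The 4 lower ones (C1qa, C1qb, C1qc and Vcam1) lie near the floor, with means of 0.0766 to 0.362 FPKM with SGFD and 1.38 to 2.30 FPKM with CD. They reached 1 FPKM only in CD libraries and so were tested only through that diet, where no call but lower was open to them. LT-HSC markers had 9 of 12 lower and none higher (97.3 to 101 FPKM with SGFD, 198 to 204 FPKM with CD). Erythroid and megakaryocyte markers had 6 of 7 lower and 1, Itga2b, higher (153 to 158 FPKM with SGFD, 274 to 284 FPKM with CD). Lymphoid markers had 4 of 6 lower and 1 higher (415 to 462 FPKM with SGFD, 442 to 478 FPKM with CD, which overlap), with the T cell gene Cd3e at 0 in every library. Of the lower ones, Igll1 and Cd79a also reached 1 FPKM only in CD libraries. Of the gate's own genes, Kit averaged 71.4 ± 2.06 FPKM with SGFD and 122 ± 0.843 FPKM with CD (SD, n = 3 each), and Cd34, whose protein the gate excludes, had RNA at 429 ± 8.58 FPKM with SGFD and 471 ± 15.4 FPKM with CD. Flt3, which encodes the CD135 that the gate also excludes, averaged 90.5 ± 3.72 FPKM with SGFD and 114 ± 1.19 FPKM with CD, and Ly6a (Sca1) 58.5 ± 4.89 FPKM with SGFD and 66.7 ± 2.89 FPKM with CD. The part of these markers in the results on mitosis genes was not tested.

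Many mitosis genes share a promoter layout, in which a CHR element (cell cycle genes homology region) near the start site binds the DREAM complex in quiescent cells and the MYBL2-FOXM1 form of the complex in G2, and CCAAT boxes bind NF-Y. The words TTTGAA and TTCGAA on either strand were counted as the CHR and CCAAT on either strand as the NF-Y box, in the 300 bases from 250 before to 50 after each start site, from RefSeq on GRCm38.p6. Of the members, 39 of 46 had a promoter in that table. A CHR word stood in 32 of the 39 (82.1%), against 21.7% of all 27025 genes in the table, and within 50 bases of the start site in 29 (74.4%), against 6.12% of all genes. CCAAT stood in 31 (79.5%), against 41.1% of all genes, and both stood in the same promoter for 28 members (71.8%), against 8.61% of all genes. These are counts of letters, not of bound sites.

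The 6 promoters printed here belong to members whose RNA differed between the diets: 4 that rose with SGFD (Cks1b, Ube2c, Ccnb1, Cdc20) and the 2 that fell (Cenpf, Mki67). Each runs 5′ to 3′ on the gene's strand from 220 bases before to 30 bases after the start site, with CHR words and CCAAT boxes, or their reverse complements, in capitals.
Cks1b (chr3:89418262-89418511, minus strand): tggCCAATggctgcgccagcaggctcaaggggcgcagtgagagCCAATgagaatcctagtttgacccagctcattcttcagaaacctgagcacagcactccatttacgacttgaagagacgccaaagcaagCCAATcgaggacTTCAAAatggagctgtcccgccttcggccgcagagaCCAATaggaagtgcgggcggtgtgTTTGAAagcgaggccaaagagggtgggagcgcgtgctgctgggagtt
Ube2c (chr2:164769709-164769958, plus strand): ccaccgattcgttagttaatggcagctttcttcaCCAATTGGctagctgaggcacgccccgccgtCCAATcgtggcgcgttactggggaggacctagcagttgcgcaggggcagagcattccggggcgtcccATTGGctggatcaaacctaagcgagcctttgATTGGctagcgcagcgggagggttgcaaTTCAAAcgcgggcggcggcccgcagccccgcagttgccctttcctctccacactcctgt
Ccnb1 (chr13:100786457-100786706, minus strand): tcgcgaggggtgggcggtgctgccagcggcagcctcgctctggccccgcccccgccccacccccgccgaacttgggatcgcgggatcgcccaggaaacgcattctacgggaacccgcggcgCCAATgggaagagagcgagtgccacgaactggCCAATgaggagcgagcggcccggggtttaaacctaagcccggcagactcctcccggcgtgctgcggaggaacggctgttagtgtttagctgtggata
Cdc20 (chr4:118437314-118437563, minus strand): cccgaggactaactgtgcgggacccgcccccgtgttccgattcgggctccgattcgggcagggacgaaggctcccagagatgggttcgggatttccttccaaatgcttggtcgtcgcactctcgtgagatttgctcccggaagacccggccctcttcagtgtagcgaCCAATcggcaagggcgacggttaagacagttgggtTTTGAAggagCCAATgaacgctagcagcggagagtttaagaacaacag
Cenpf (chr1:189688057-189688306, minus strand): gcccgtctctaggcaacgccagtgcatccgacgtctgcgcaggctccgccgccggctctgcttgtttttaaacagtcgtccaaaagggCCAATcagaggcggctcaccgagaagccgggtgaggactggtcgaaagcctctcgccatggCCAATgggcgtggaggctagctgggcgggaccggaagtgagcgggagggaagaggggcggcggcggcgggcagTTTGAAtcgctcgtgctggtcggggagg
Mki67 (chr7:135716350-135716599, minus strand): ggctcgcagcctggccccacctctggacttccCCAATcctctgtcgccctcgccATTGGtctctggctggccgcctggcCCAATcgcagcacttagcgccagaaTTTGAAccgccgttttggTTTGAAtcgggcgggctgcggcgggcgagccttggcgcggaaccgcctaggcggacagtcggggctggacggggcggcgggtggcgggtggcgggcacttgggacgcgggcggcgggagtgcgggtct
Cks1b holds CHR words at 17 and 77 bases before the start site and 4 CCAAT boxes. Ube2c holds 1 CHR word 29 bases before the start and 5 CCAAT boxes, of which a pair overlaps in the run CCAATTGG. The Cdc20 CHR word lies 18 bases before the start, and Ccnb1 holds 2 CCAAT boxes with neither CHR word in this window. Genes that fell carry the same layout: Cenpf has a CHR word 3 bases after the start and 2 CCAAT boxes, and Mki67 has CHR words at 98 and 116 bases before it with 3 CCAAT boxes. Whether the CHR word goes with the response to diet was not tested. It stood in 14 of 18 members that rose, in 2 of 2 that fell and in 16 of 19 without a call, and the median difference was 0.10 on the log2 scale in the 32 members with the word and 0.21 in the 7 without.

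With SGFD, 23 of the 46 mitosis genes rose, 2 fell (Cenpf and Mki67) and 21 did not pass the test, while on the TPM scale, where each library is scaled to the same total, 6 rose and 11 fell. Among all 10618 genes tested, 17.6% rose and 41.8% fell with SGFD in FPKM, and 9.72% rose and 59.6% fell in TPM. The counts per role below are to be read beside these shares. Calls are from limma on log2(FPKM + 1) with a Benjamini-Hochberg adjusted p under 0.05 over all tested genes, and differences below are SGFD minus CD on that scale, with their SE. The changes were small, from -0.40 for Cenpf to 0.46 for Aurkb, with a median of 0.12 over the members and -0.13 over all tested genes. Every SGFD library lay above every CD library for 26 members, against 19.6% of tested genes, and below for 6, against 45.5%.

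The direction of the group as a whole changed with the scaling, whereas its median lay above that of all genes in each scaling run. The median tested gene was at -0.13 in FPKM, -0.27 in TPM, -0.01 with median-ratio scaling and -0.02 with quantile normalization. The members' median was at 0.12 in FPKM, -0.02 in TPM, 0.26 with median-ratio scaling and 0.11 with quantile normalization. Relative to the median gene, the members' median was 0.26 higher in FPKM, 0.26 in TPM, 0.27 with median-ratio scaling and 0.13 with quantile normalization, and 41 of 46 members lay above the median gene in FPKM. Calls moved with it: 29 members rose and 1 fell with median-ratio scaling, and 20 rose and 4 fell with quantile normalization. Of 32 members above 0 in FPKM, 11 were below 0 in TPM, and of 14 below 0 in FPKM, 9 were above 0 with median-ratio scaling. Aurkb, Plk1, Cks1b, Ccnb1, Ube2c and Birc5 rose under all of these scalings. The plot of the members under 5 scalings shows these shifts.

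**Figure D1:**
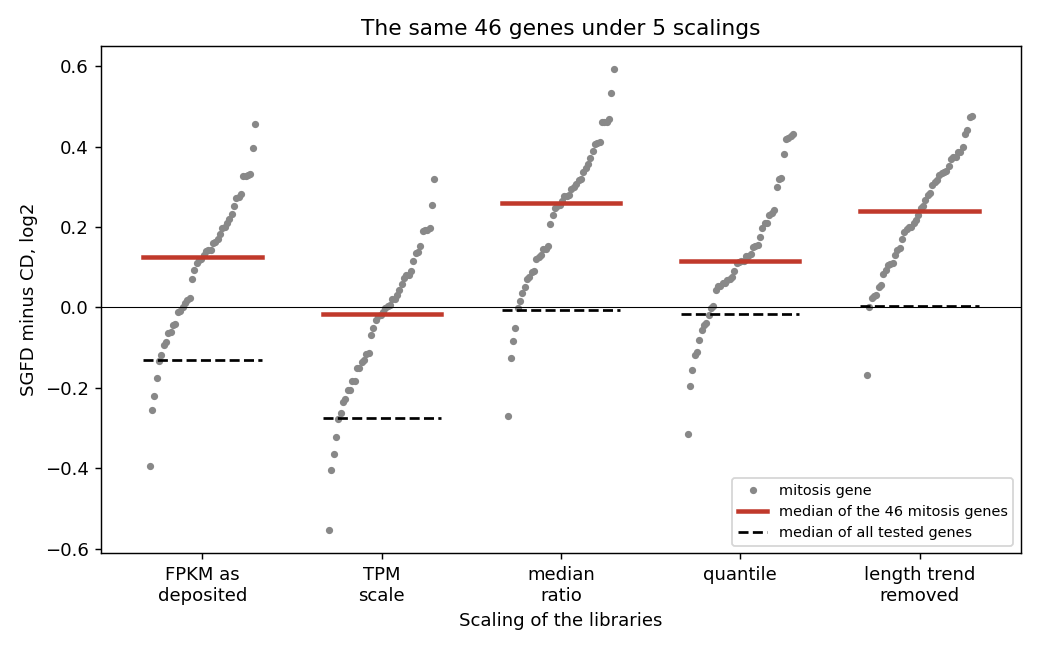
Difference between diets (SGFD minus CD, log2) for the 46 mitosis genes under 5 scalings of the libraries; grey points are genes and the markers are the medians of the members and of all tested genes. The members' median is 0.12 in FPKM and -0.02 in TPM, and it lies above the median of all tested genes in each of the 5.

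Among the mitotic kinases, 3 of 7 rose (Aurkb, Aurka and Plk1), none fell, and the median difference was 0.12; in TPM, 2 rose and 1, Bub1b, fell. Aurkb (chr11:69045624-69051664, GRCm38), the kinase of the chromosomal passenger complex, had 53.9, 53.3 and 57.3 FPKM in SGFD libraries, against 38.3, 39.6 and 41.1 FPKM in CD libraries (1.38-fold, difference 0.46 ± 0.05, adjusted p = 3.84e-05). Aurka, which builds spindle poles, had 29.6, 30.2 and 25.5 FPKM with SGFD, against 24.1, 21.3 and 22.0 FPKM with CD (difference 0.33 ± 0.07, adjusted p = 0.00296). Plk1, the Polo kinase of mitotic entry and cytokinesis, had 33.1, 29.9 and 31.8 FPKM with SGFD, against 25.1, 26.0 and 26.8 FPKM with CD (difference 0.27 ± 0.05, adjusted p = 0.00156). In each of the 3 genes that rose the lowest SGFD library stood above the highest CD library. Cdk1, the engine of mitotic entry, did not pass, although its diets did not overlap either: it had 32.9, 33.4 and 35.6 FPKM with SGFD, against 30.5, 31.3 and 31.8 FPKM with CD (difference 0.12 ± 0.05, adjusted p = 0.0567; -0.02 in TPM). It was called higher with median-ratio scaling (0.25, adjusted p = 0.00229), with quantile normalization (0.13, adjusted p = 0.0497) and with the length trend removed (0.33, adjusted p = 0.000699). The removal used its annotated length of 4375 bases, while its FPKM values imply 2860 bases. The checkpoint kinases were without a call in FPKM. Ttk (MPS1) differed by 0.02 and Bub1 by -0.04, with overlapping libraries. Bub1b (BUBR1) had 43.0, 43.7 and 42.4 FPKM with SGFD, all below the 46.3, 44.8 and 45.98 FPKM with CD (difference -0.09 ± 0.04, adjusted p = 0.104). It was called lower in TPM (-0.23, adjusted p = 0.00158) and with quantile normalization (-0.12, adjusted p = 0.0369).

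The cyclins and CDK partners had 5 of 7 genes that rose and a median difference of 0.20; in TPM, 2 rose and 1, Cdc25b, fell. Cks1b, a small CDK-binding subunit and after Top2a the most abundant member, had 134, 146 and 139.5 FPKM with SGFD, against 111, 104 and 104 FPKM with CD (1.32-fold, difference 0.40 ± 0.05, adjusted p = 6.33e-05). Its paralogue Cks2 had 92.5, 116 and 101 FPKM with SGFD, against 82.0, 88.1 and 92.2 FPKM with CD (difference 0.23 ± 0.08, adjusted p = 0.0213). The call on Cks2, the shortest member, was lost without CD replicate 1 (adjusted p = 0.0866), in TPM (0.09, adjusted p = 0.342), with quantile normalization (0.12, adjusted p = 0.254), with array weights (0.13, adjusted p = 0.0773) and with the length trend removed (0.06, adjusted p = 0.631). Ccnb1 (cyclin B1) had 39.7, 45.2 and 39.2 FPKM with SGFD, against 33.8, 31.0 and 33.3 FPKM with CD (1.26-fold, difference 0.33 ± 0.06, adjusted p = 0.00127). For Cks1b, Cks2 and Ccnb1 the diets did not overlap, but the 3 SGFD libraries of Cks2 were spread more widely than the gap between the diets. Ccna2 (cyclin A2) had 52.0, 52.5 and 52.6 FPKM with SGFD, against 45.4, 46.5 and 47.4 FPKM with CD (difference 0.17 ± 0.04, adjusted p = 0.00488), again without overlap. Ccnb2 (cyclin B2) is the weakest of the 5, with 58.0, 61.2 and 56.0 FPKM under SGFD, 56.0, 53.0 and 49.7 FPKM under CD and a difference of 0.14 ± 0.05 (adjusted p = 0.0445) that is -0.0004 in TPM. Its call was lost without any of 4 of the 6 libraries (adjusted p from 0.0879 to 0.182). The CDK-activating phosphatases did not pass: Cdc25c, the least abundant member, had 7.21, 6.58 and 6.34 FPKM with SGFD, against 6.19, 5.07 and 5.93 FPKM with CD (difference 0.20, adjusted p = 0.072), and was called higher with median-ratio scaling (0.32, adjusted p = 0.00906) and with quantile normalization (0.43, adjusted p = 0.00207). Cdc25b had 13.7, 13.2 and 13.5 FPKM with SGFD, against 13.8, 15.5 and 14.1 FPKM with CD (difference -0.09, adjusted p = 0.221). The reference annotation lists named copies of Ccnb1, Ccnb2, Cks1b, Kif4 and Kif22. How shared reads were counted is not given in the sources used here, and the values of these genes are uncertain to that extent.

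**Figure D2:**
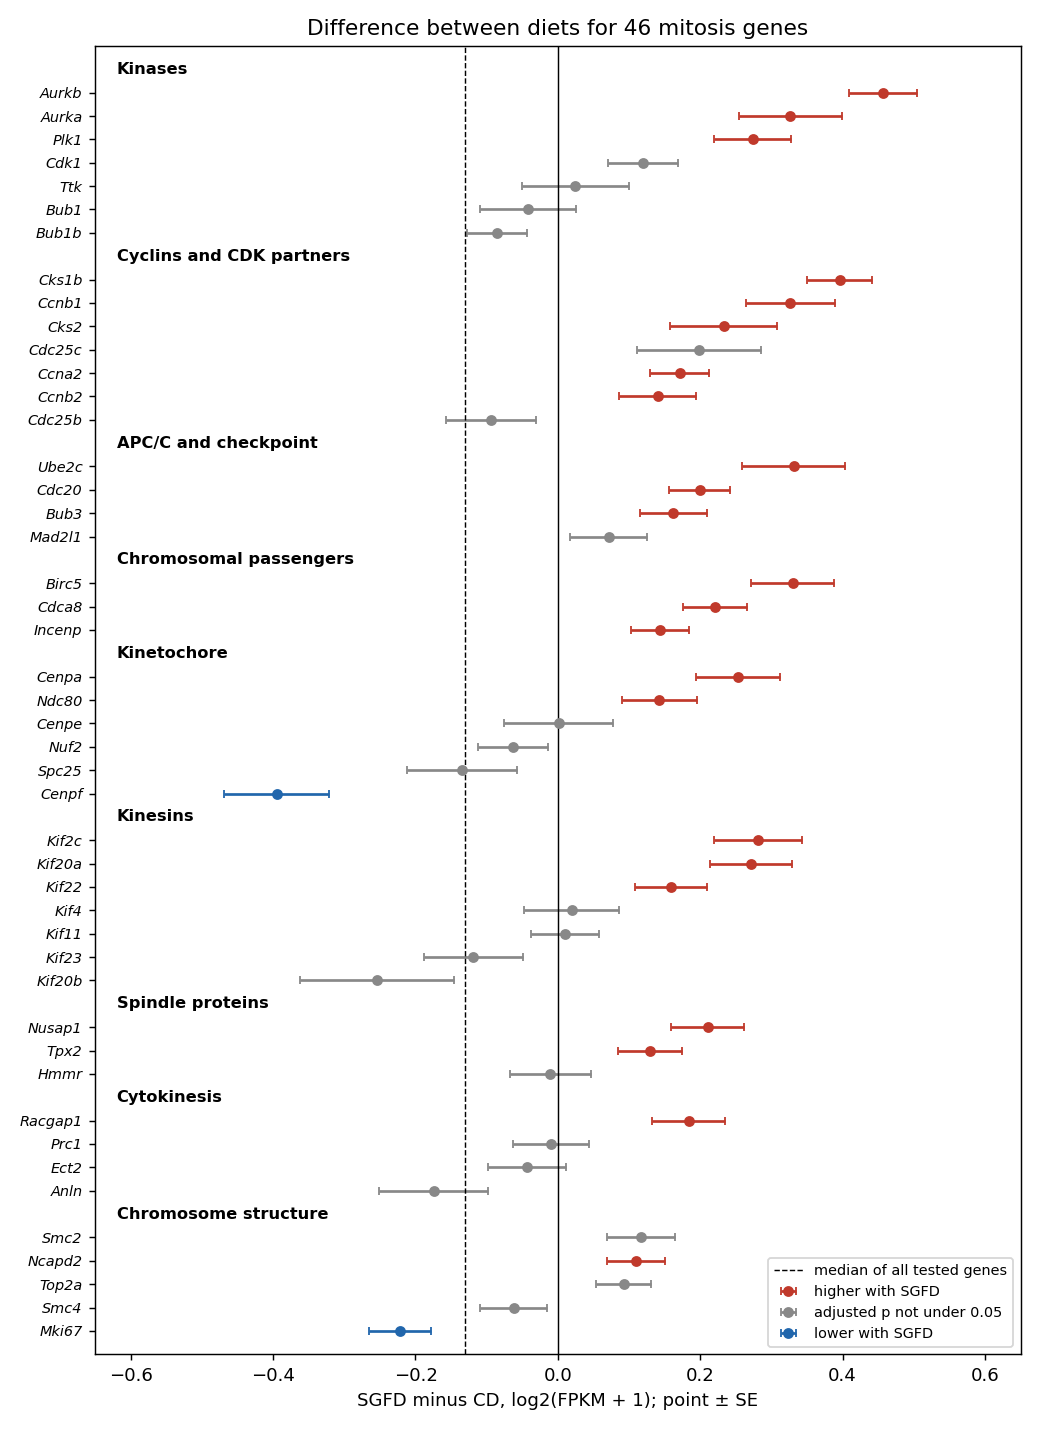
Difference between diets (SGFD minus CD, log2(FPKM + 1), point ± SE) for all 46 members, grouped by role; colours mark members called higher, lower or not called by limma. All 3 passenger genes and 5 of 7 cyclins and CDK partners are called higher in FPKM, while in TPM the calls are 6 higher and 11 lower over all members. Among all tested genes, 17.6% are higher and 41.8% lower in FPKM, and 9.72% are higher and 59.6% lower in TPM.

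Of the APC/C activators and spindle checkpoint genes, 3 of 4 rose, with a median difference of 0.18, and 1, Ube2c, rose in TPM. Ube2c, the ubiquitin-conjugating enzyme of the APC/C, had 75.2, 81.2 and 93.4 FPKM with SGFD, against 62.6, 69.7 and 65.1 FPKM with CD (difference 0.33 ± 0.07, adjusted p = 0.00284). Cdc20, the APC/C activator of metaphase, had 66.0, 68.2 and 66.1 FPKM with SGFD, against 59.3, 55.8 and 59.0 FPKM with CD (difference 0.20 ± 0.04, adjusted p = 0.00262). Bub3, a checkpoint protein that binds BUB1 and BUBR1, had 69.3, 67.9 and 72.5 FPKM with SGFD, against 62.3, 59.5 and 65.3 FPKM with CD (difference 0.16 ± 0.05, adjusted p = 0.0131, and 0.0627 without CD replicate 2). None of these 3 overlapped between the diets, and the call on Bub3 was lost with quantile normalization (0.07, adjusted p = 0.237). Mad2l1, which holds CDC20 inactive, had 37.2, 35.2 and 33.5 FPKM with SGFD and 34.2, 32.0 and 34.4 FPKM with CD (difference 0.07, adjusted p = 0.27; -0.07 in TPM). It was called higher with median-ratio scaling (0.21, adjusted p = 0.00753) and with the length trend removed (0.43, adjusted p = 0.000105). The latter used its annotated length of 7557 bases, while its FPKM values imply 2651 bases, and is uncertain to that extent.

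The chromosomal passenger subunits all rose, and their libraries did not overlap in any of the 3. Birc5 (survivin), which targets the complex to the centromere, had 22.1, 23.1 and 23.8 FPKM with SGFD, against 18.1, 19.0 and 17.2 FPKM with CD (1.27-fold, difference 0.33 ± 0.06, adjusted p = 0.000813). Cdca8 (borealin) had 68.4, 69.7 and 70.6 FPKM with SGFD, against 56.8, 59.8 and 62.2 FPKM with CD (difference 0.22 ± 0.05, adjusted p = 0.00195). Incenp, the scaffold that activates AURKB, had 66.4, 66.1 and 65.3 FPKM with SGFD, against 58.3, 59.1 and 61.5 FPKM with CD (difference 0.14 ± 0.04, adjusted p = 0.0115, and 0.0586 without CD replicate 1). With Aurkb, all 4 subunits of the complex were called higher in FPKM, while in TPM Cdca8 (0.08) and Incenp (0.00) were not. Incenp was not called with quantile normalization either (0.06, adjusted p = 0.254).

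Kinetochore members went in different directions, with 2 of 6 that rose, 1 that fell and a median difference of -0.03; in TPM none rose and 3 fell (Cenpf, Nuf2 and Spc25). Cenpa, the centromeric histone H3 variant, had 46.9, 46.8 and 42.6 FPKM with SGFD, against 39.5, 35.1 and 39.3 FPKM with CD (difference 0.25 ± 0.06, adjusted p = 0.0043). Ndc80, the microtubule-binding subunit of the NDC80 complex, had 25.4, 25.0 and 24.0 FPKM with SGFD, against 21.6, 23.3 and 22.2 FPKM with CD (difference 0.14 ± 0.05, adjusted p = 0.0383). Its call was lost without any of 4 of the 6 libraries (adjusted p from 0.0621 to 0.141). Cenpf, a large protein of the outer kinetochore, had 8.01, 8.46 and 7.36 FPKM with SGFD, against 10.5, 11.4 and 10.4 FPKM with CD (difference -0.40 ± 0.07, adjusted p = 0.00115), the largest fall of any member and without overlap. The difference was 0.09 (adjusted p = 0.291) once the trend with transcript length was removed. The other subunits of the NDC80 complex did not pass: Nuf2 had 28.3, 29.6 and 28.1 FPKM with SGFD and 29.5, 31.1 and 29.5 FPKM with CD (difference -0.06). Spc25 had 17.3, 18.5 and 20.5 FPKM with SGFD and 21.1, 18.8 and 22.2 FPKM with CD (difference -0.13, adjusted p = 0.156). Cenpe, the kinetochore kinesin, averaged 12.2 ± 1.31 FPKM with SGFD and 12.2 ± 0.155 FPKM with CD (SD, n = 3 each).

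Of the kinesins, 3 of 7 rose and none fell, with a median difference of 0.02; in TPM none rose and 2 fell (Kif20b and Kif23). Kif2c (MCAK), which takes microtubules apart at centromeres, had 14.9, 15.6 and 14.6 FPKM with SGFD, against 12.2, 11.6 and 12.7 FPKM with CD (difference 0.28 ± 0.06, adjusted p = 0.00298). Kif20a (MKLP2), which carries the passenger complex to the central spindle, had 28.4, 30.9 and 28.5 FPKM with SGFD, against 24.3, 22.7 and 25.3 FPKM with CD (difference 0.27 ± 0.06, adjusted p = 0.00251). Kif22, a motor bound to chromosome arms, had 38.1, 40.9 and 37.3 FPKM with SGFD, against 33.9, 35.7 and 34.1 FPKM with CD (difference 0.16 ± 0.05, adjusted p = 0.0196). Without CD replicate 1 the adjusted p was 0.0734 and without CD replicate 3 it was 0.0645. These 3 did not overlap between the diets, and the other kinesins did. Kif11 (Eg5), which pushes spindle poles apart, differed by 0.01 and Kif4, an arm-bound motor, by 0.02, and both were below 0 in TPM (-0.13 and -0.12) and called higher with the length trend removed (0.25 and 0.27). Kif20b, a motor of late cytokinesis, had 10.3, 12.2 and 8.54 FPKM with SGFD, against 12.1, 11.8 and 13.5 FPKM with CD (difference -0.25 ± 0.11, adjusted p = 0.0631). With each library left out in turn, the difference ran from -0.37 to -0.14. It was called lower only without SGFD replicate 2 (-0.37, adjusted p = 0.00557). Kif23 (MKLP1) had 31.9, 34.1 and 28.4 FPKM with SGFD, against 34.4, 32.1 and 36.1 FPKM with CD (difference -0.12, adjusted p = 0.162, and 0.0422 without SGFD replicate 2).

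Spindle assembly factors had 2 of 3 genes that rose, and none with a call in TPM. Nusap1, which bundles microtubules near chromatin, had 37.6, 39.8 and 37.3 FPKM with SGFD, against 31.3, 34.0 and 33.5 FPKM with CD (difference 0.21 ± 0.05, adjusted p = 0.00509). Tpx2, the activator of AURKA, had 42.7, 43.4 and 42.5 FPKM with SGFD, against 38.7, 38.0 and 40.6 FPKM with CD (difference 0.13 ± 0.04, adjusted p = 0.0287) and -0.01 in TPM. The call was lost without any of 3 of the 6 libraries (adjusted p from 0.0631 to 0.107). Hmmr, a spindle pole protein, differed by -0.01 with overlapping libraries.

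In the cytokinesis group 1 of 4 genes rose and none fell, while in TPM none rose and 2 fell (Anln and Ect2). Racgap1, the GTPase-activating subunit of centralspindlin, had 44.1, 48.5 and 48.7 FPKM with SGFD, all above the 41.2, 40.1 and 42.6 FPKM with CD (difference 0.18 ± 0.05, adjusted p = 0.0106). Prc1, which cross-links the midzone, differed by -0.01 and Ect2, the RhoA exchange factor that RACGAP1 recruits, by -0.04, with overlap in both. Anln (anillin), the scaffold of the contractile ring, had 7.60, 7.85 and 6.76 FPKM with SGFD, all below the 8.02, 8.81 and 8.58 FPKM with CD (difference -0.17 ± 0.08, adjusted p = 0.0717, and 0.0395 without SGFD replicate 2). Roles hold 3 to 7 genes each, and the differences between roles were not tested.

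Genes of chromosome structure showed 1 rise and 1 fall among 5, and in TPM no rise and 2 falls (Mki67 and Smc4). Mki67 (Ki-67), the coat protein of mitotic chromosomes and a marker of cycling cells, had 61.1, 64.0 and 59.5 FPKM with SGFD, all below the 70.2, 72.7 and 72.8 FPKM with CD (difference -0.22 ± 0.04, adjusted p = 0.00151). The fall was larger in TPM (-0.37, adjusted p = 0.000111) and with quantile normalization (-0.31, adjusted p = 0.000229), did not pass with median-ratio scaling (-0.08, adjusted p = 0.124), and was turned to a rise with the length trend removed (0.23, adjusted p = 0.00161). Top2a, which untangles sister chromatids and is the most abundant member, had 143, 153 and 145 FPKM with SGFD, against 138, 136 and 139 FPKM with CD (difference 0.09 ± 0.04, adjusted p = 0.0617; -0.05 in TPM and -0.06 with quantile normalization). It was called higher with median-ratio scaling (0.23, adjusted p = 0.00104) and with the length trend removed (0.35, adjusted p = 2.98e-05). Of the condensin subunits, Ncapd2 had 85.3, 85.0 and 81.1 FPKM with SGFD, against 75.7, 79.1 and 78.1 FPKM with CD (difference 0.11 ± 0.04, adjusted p = 0.0397), with -0.03 in TPM and -0.0024 with quantile normalization. Of the 6 libraries left out in turn, the call was kept only without SGFD replicate 3. Smc2 had 35.3, 38.3 and 37.6 FPKM with SGFD, against 33.8, 34.7 and 33.8 FPKM with CD (difference 0.12, adjusted p = 0.0558; -0.02 in TPM, and called higher at 0.39 with the length trend removed). Its partner Smc4 had 70.9, 70.9 and 64.3 FPKM with SGFD, against 71.6, 71.2 and 72.2 FPKM with CD (difference -0.06, adjusted p = 0.275). Smc4 was called lower in TPM (-0.20) and with quantile normalization (-0.16, adjusted p = 0.0235), and higher with the length trend removed (0.14).

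**Figure D3:**
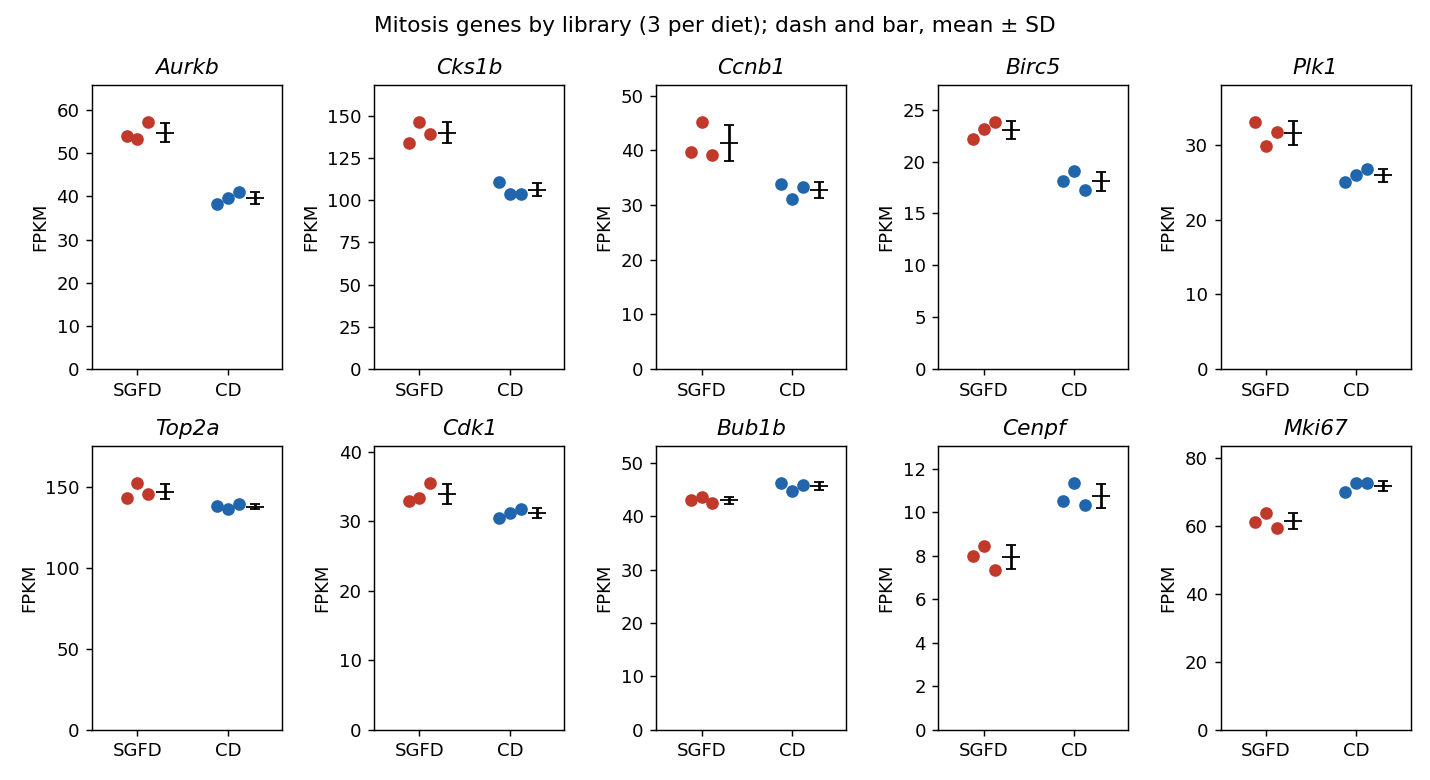
FPKM in each library (points) with the mean and SD of 3 libraries, SGFD left of CD, for 10 mitosis genes; each axis starts at 0. Aurkb, Cks1b, Ccnb1, Birc5 and Plk1 lie higher with SGFD without overlap, Top2a and Cdk1 are not called in FPKM, and Bub1b, Cenpf and Mki67 lie lower, where Cenpf and Mki67 are called lower in FPKM and are above 0 (0.09 and 0.23) with the length trend removed.

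Ratios between partners ask whether genes that work together differed by the same factor. In 9 pairs of members, the FPKM ratio was taken within each library, which multiplying a library by a factor cannot change, although quantile normalization and removal of the length trend can. Racgap1 to Kif23, the subunits of centralspindlin, was 1.51 ± 0.181 with SGFD and 1.21 ± 0.0367 with CD (SD, n = 3 each). Aurkb to its scaffold Incenp was 0.831 ± 0.0393 with SGFD and 0.665 ± 0.00679 with CD. Cdc20 to Bub1b, an APC/C activator and its inhibitor, was 1.55 ± 0.0142 with SGFD and 1.27 ± 0.0218 with CD. The ratios of Ndc80 to Nuf2 (0.864 with SGFD, 0.745 with CD) and of Smc2 to Smc4 (0.541 with SGFD, 0.476 with CD) were higher too, and these 5 pairs did not overlap between the diets. Their exact two-sided permutation p was 0.1, the smallest that 3 libraries against 3 allow, and 0.18 after adjustment over the 9 pairs. With the length trend removed, the gap between the fitted differences of partners was 0.20 for Aurkb and Incenp, against 0.31 in FPKM, and 0.12 for Cdc20 and Bub1b, against 0.28 in FPKM. Ndc80 to Spc25, Cks1b to Cks2 and Ccnb1 to Cdk1 overlapped (exact p = 0.2), as did Aurkb to Aurka (exact p = 0.6).

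Transcript length went with the difference between diets, among the mitosis genes and among all genes. Split at the members' median of 3285 annotated bases, 17 of the 23 short members rose and none fell, with a median difference of 0.20. Of the 23 long members, 6 rose and 2 fell, with a median of 0.01. In TPM, 5 short members rose and 3 fell, and 1 long member rose and 8 fell. Among all tested genes of any length, 17.6% rose and 41.8% fell in FPKM, and 9.72% rose and 59.6% fell in TPM. Cks2 (692 bases) and Cks1b (849 bases) are the shortest members, and Mki67 (10061 bases) and Cenpf (11130 bases), the 2 that fell, are the longest. Across the 46 members the difference correlated with log2 length at Pearson's r = -0.61 and Spearman's rho = -0.59, and across 10538 genes with a known length at r = -0.38 and rho = -0.44. These are correlations across genes within the same 6 libraries, and genes are not independent replicates. With all genes in 10 equal bins of length, 43.8% rose in the bin of shortest transcripts (median 952 bases) and 3.89% in the bin of longest (median 8009 bases).

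Set against genes of like length, the gap between short and long members was not seen. The median difference above the genes of the same length bin was 0.22 for short and 0.23 for long members, and 44 of 46 members (all but Spc25 and Cenpf) lay above the median of their bin. With a smooth trend on length removed from each library, 31 members rose and none fell, against 25.4% of genes that rose and 21.6% that fell, and the median difference of the members was 0.24. The gap between short and long members was 0.19 in FPKM and was reversed, at -0.06, after that removal. The part of transcript length in the differences of single members was not tested beyond this removal. Bins and trend used annotated lengths, which for some members differ from the length their FPKM values imply. Mad2l1 has 7557 annotated and 2651 implied bases, Cdk1 4375 and 2860, Bub1 3421 and 2170, and Ube2c 2191 and 931. Anln (4605 and 6758) and Kif4 (4983 and 6557) differ the other way. Neither step was rerun with implied lengths, so values for such genes are uncertain, as is the count of 44. With implied lengths, r over the members was -0.64.

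**Figure D4:**
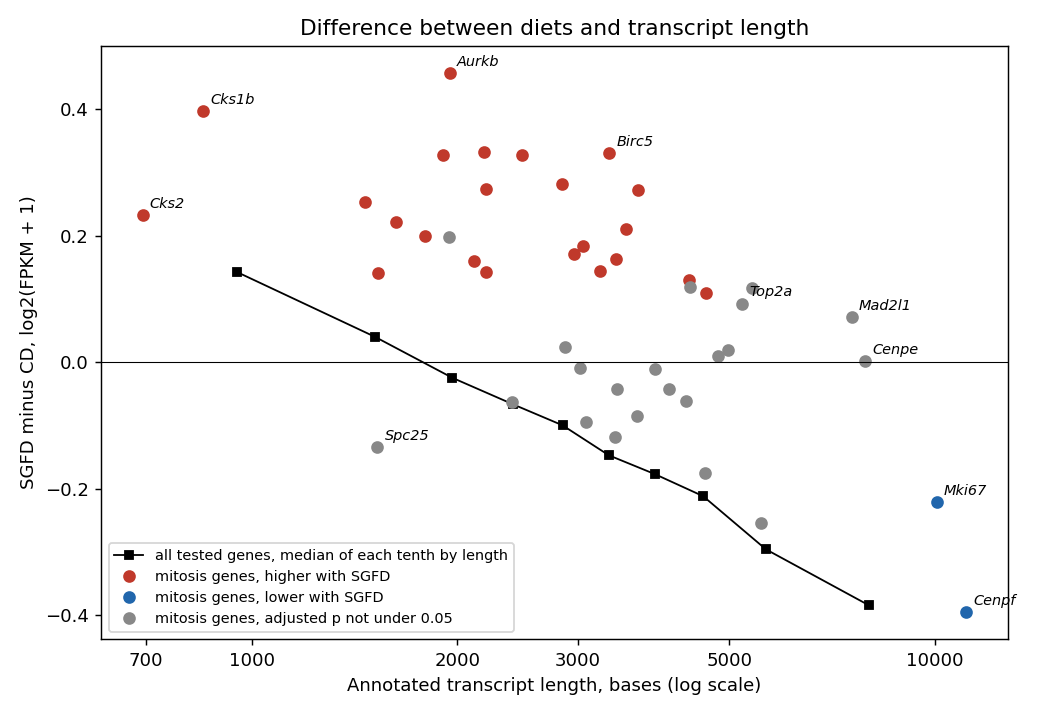
Difference between diets (SGFD minus CD, log2(FPKM + 1)) against annotated transcript length (log scale) for the 46 members, with the median of all tested genes in each of 10 bins of length. The difference declines with length, in members and in all genes, and 44 of 46 lie above the median of their bin; the 2 longest, Cenpf and Mki67, are the 2 called lower and turn to 0.09 and 0.23 with the length trend removed.

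Summed over the group, the SGFD libraries stood above the CD libraries in FPKM but not as a share of the library. The members summed to 1940, 2032 and 1951 FPKM in SGFD libraries, against 1780, 1778 and 1817 FPKM in CD libraries. As a share of each library's total FPKM these sums were 0.408%, 0.438% and 0.402% with SGFD and 0.416%, 0.41% and 0.425% with CD, and the diets overlap on that scale. Among the SGFD libraries, replicate 2 was the highest in 26 members and replicate 3 the lowest in 27. Of the 25 members called, 17 stayed called without each of the 6 libraries; without SGFD replicate 2, 5 members were called lower.

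Other genes of these pathways and families, 125 in 8 lists and not all particular to mitosis, had 24 that rose (19.2%, against 17.6% of all tested genes) and 31 that fell (24.8%, against 41.8%) in FPKM. In TPM 10 rose (8.0%, against 9.72%) and 70 fell (56.0%, against 59.6%). The other kinases and phosphatases had 4 of 16 that rose and 3 that fell. Wee1, the kinase that restrains CDK1, averaged 18.4 ± 0.421 FPKM with SGFD and 28.4 ± 0.651 FPKM with CD (SD, n = 3 each; difference -0.60 ± 0.05, adjusted p = 9.17e-06). None of 9 other kinesins rose and 2 fell (Kif3a and Kif1b, neither of which passed with quantile normalization or with the length trend removed). Both are known mainly as cargo motors, not mitotic kinesins, and are counted among the 31 that fell. Of 30 other kinetochore genes 7 rose and 6 fell, with Cenph at 27.4 ± 0.877 FPKM with SGFD and 21.0 ± 1.21 FPKM with CD (difference 0.37 ± 0.06, adjusted p = 0.000367). Spindle genes had 5 of 20 that rose, among them the tubulin Tuba1c (0.45), and 6 that fell, among them Numa1 (-0.39) and Aspm (-0.56), both spindle pole proteins, whose adjusted p was 0.36 and 0.244 with the length trend removed. Cohesin and separase genes had 1 of 14 that rose and 4 that fell, and condensin 1 of 5 each way. APC/C subunits and partners had 4 of 17 each way, with Ube2s, the chain-elongating enzyme of the APC/C, at 0.33 (adjusted p = 9.66e-05). With the length trend removed, the combined lists had 48 that rose (38.4%, against 25.4% of all genes) and 9 that fell (7.2%, against 21.6%).

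Of 14 regulators that act through the promoter elements above (DREAM, FOXM1 and NF-Y), 2 rose (14.3%) and 5 fell (35.7%), shares near the 17.6% and 41.8% of all tested genes. In TPM none rose and 10 fell (71.4%), against 9.72% of all tested genes that rose and 59.6% that fell. Mybl2 (B-MYB) had 16.6, 17.0 and 18.4 FPKM with SGFD, against 14.9, 12.5 and 14.3 FPKM with CD (difference 0.31 ± 0.07, adjusted p = 0.00494). Foxm1 had 13.8, 13.8 and 13.4 FPKM with SGFD, against 16.7, 15.9 and 17.4 FPKM with CD (difference -0.27 ± 0.06, adjusted p = 0.00292), and did not pass with median-ratio scaling (-0.14, adjusted p = 0.062), with quantile normalization (-0.14, adjusted p = 0.069) or with the length trend removed (-0.04, adjusted p = 0.572). Rbl2, the pocket protein of DREAM in quiescent cells, averaged 16.8 ± 0.548 FPKM with SGFD and 23.2 ± 0.335 FPKM with CD (SD, n = 3 each; difference -0.44 ± 0.05, adjusted p = 7.71e-05). Nfya, the DNA-binding subunit of NF-Y, fell by 0.39. Rbl1, the other pocket protein of DREAM, fell by 0.25 (adjusted p = 0.00192) and did not pass with median-ratio scaling (-0.12, adjusted p = 0.0701) or with the length trend removed (-0.01). DNA replication genes, which act in the S phase before, had 11 of 26 that rose (42.3%) and 1, Gins3, that fell (3.85%). In TPM 2 of them rose (7.69%, against 9.72% of all tested genes) and 9 fell (34.6%, against 59.6%). Rrm2 averaged 60.8 ± 2.49 FPKM with SGFD and 45.8 ± 2.31 FPKM with CD (difference 0.40 ± 0.05, adjusted p = 0.000116). Among 5 CDK inhibitors tested, Cdkn1a rose (92.9, 102 and 79.6 FPKM with SGFD, against 31.7, 27.7 and 27.8 FPKM with CD, difference 1.62 ± 0.08, adjusted p = 2.7e-07) and Cdkn1c fell (-0.35, adjusted p = 0.0256). The Cdkn1c libraries overlapped, and its call was lost with median-ratio scaling (-0.24, adjusted p = 0.117) and with quantile normalization (-0.08, adjusted p = 0.65).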

How the data were processed

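RNA was measured by stranded mRNA sequencing (TruSeq, after RNeasy Micro extraction) per the labels. For processing, GRCm38 and mm10 are the builds and HISAT2, StringTie and fastp the tools in the submitters' processing notes; versions and roles are not given in the sources used here. The authors deposited 1 value per gene and library, taken as FPKM; the unit was inferred from the values, which are whole fragments over a whole-number gene length within 0.005 fragments. Library totals are the commonest estimate over 952 genes with a single annotated transcript, of which 138 lay at it. Fragment numbers are the smallest that give the values.

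Of 21878 rows per table, 4 rows whose date-like names occur on 2 rows each were left out and 23 other date-like names were kept unnamed; no mitochondrial gene is listed. A gene was tested if 3 or more of the 6 libraries reached 1 FPKM, which 10618 did. A pseudocount of 1 was added, and limma 3.58.1 (R 4.3.3) was run on log2 values (empirical Bayes with trend and robust settings, no covariates, all 6 libraries), with two-sided p-values, Benjamini-Hochberg adjusted, at 0.05. The script was tested on simulated data. All 46 members passed the filter in both diets. On that scale the changes of low genes come out too small, and a fold is the ratio of the mean FPKM of the diets. Lengths are those of the GENCODE vM21 transcript with the longest coding sequence, not the gene lengths that the FPKM values imply.

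The members and lists were chosen with earlier results of these data known. Text names every member, with values per library for those called and those of largest difference per role. From each other list it names up to 4 genes of smallest p. Mybl2, Spc24, Gins3, Calr and Itga2b lie outside that rule and were chosen after their values were seen. Alternatives were 2 filters, 2 pseudocounts, 2 scalings, removal of the length trend, array weights, the replicate block, a fit with neither variance trend nor robust setting, each library left out, an adjusted p of 0.01 and protein-coding genes only; TPM was added after seeing the data. The replicate numbers were not treated as pairs.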

Additional observations from a re-analysis of the deposited data

How the results depend on the processing

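The numbers of members that rose (23) and fell (2) were most affected by scaling. Median-ratio scaling gave 1 member lower, 3053 of all genes higher and 2844 lower, and a members' median of 0.26. Quantile normalization gave 4 members lower, 2552 genes lower and a gap between short and long members of 0.0939. Removing the length trend gave 0 members lower, 2272 genes lower, a median of 0.2387 and a gap of -0.056, and put 13 of the 14 members below 0 in FPKM above 0, among them Cenpf (0.0919), which lost its call, and Hmmr (0.17), Mki67 (0.23) and Smc4 (0.14), which were called higher. The TPM scale gave 6 members higher and 11 lower, 1032 genes higher and a median of -0.0153, and put 11 of the 32 members above 0 in FPKM below 0, among them Ccnb2 (-0.0004), Tpx2 (-0.0106) and Ncapd2 (-0.0322), which were called in FPKM; Ncapd2 was at -0.0024 with quantile normalization. Array weights gave 6 members lower, an adjusted p under 0.01 gave 14 higher, and a split at 3000 bases gave a gap of 0.21. Leaving out each library gave 17 to 23 members higher, 2 to 5 lower and a gap of 0.15 to 0.19. The cause of these shifts was not tested.

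In the fit with the replicate block 19 members were higher and 2 lower, and Ccnb2, Ndc80, Tpx2 and Ncapd2 lost their calls (adjusted p from limma 0.0503, 0.0724, 0.0647 and 0.0855). Deviations of same-numbered libraries correlated at -0.01, -0.23 and -0.13, and those of SGFD replicate 3 and CD replicate 2 at 0.22. Taken from means of only 3 libraries, these values cannot tell whether same-numbered libraries were handled together. Groups of 3 libraries limit what the exact tests can show, with 0.1 as the smallest p.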
